A study of Homo sapiens with 8 samples.

Results

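The 36 genes described here are the NRF2 pathway, glutathione, thioredoxin, peroxidase, dismutase and NADPH-producing pentose phosphate genes of SK-N-MC, a cell line long established from an Ewing sarcoma. They were chosen by name, as the entries of the expression table whose symbol is in a fixed list, and not by their values. All 36 were found among the 60332 genes of the table, each on 1 line. RNA was sequenced in 8 libraries that form 4 groups of 2. Every cell carried lentiviral dCas9-KRAB, a Cas9 without cutting activity joined to a transcriptional repressor, and had been selected with puromycin. Control cells carried it from the empty vector. In eKD1 and eKD2 (enhancer knockdown) cells, 1 guide each, different between both, brought the repressor to the GGAA repeat that acts as an enhancer of LOXHD1, a gene that Ewing sarcoma cells express through their fusion transcription factor. The control cells were grown in normoxia or in hypoxia, at 1% oxygen for 16 h, and all eKD libraries analysed here are from hypoxia. All groups are pools of infected cells rather than clones, and how many separate infections they came from is not given in the sources used here.

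NRF2, encoded by NFE2L2, is a transcription factor that KEAP1 marks for degradation until oxidants or electrophiles modify KEAP1. It then binds the antioxidant response element of genes that make and use glutathione and thioredoxin. Glutathione and thioredoxin donate electrons to the peroxidases, peroxiredoxins and glutaredoxins that reduce hydrogen peroxide, lipid peroxides and oxidised protein thiols. NADPH, made in part by the oxidative pentose phosphate pathway, regenerates both. Superoxide dismutases turn superoxide into hydrogen peroxide, which catalase and the peroxiredoxins remove.

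Values are FPKM (fragments scaled to transcript length and to the mapped reads of the library), so levels can be compared between genes per length. Column totals ranged from 865107 to 1041457 FPKM and the libraries listed 19310 to 20770 genes above 0. Relative depth, read from the spacing of the low values, ranged from 55.7% to 100% of that of control hypoxia replicate 1, and the absolute depth is unknown. LOXHD1, whose enhancer was targeted, had 156 and 168 FPKM in control normoxia, 93.0 and 91.1 in control hypoxia, 17.3 and 15 in eKD1 and 11.7 and 11.8 in eKD2. All 10 Ewing sarcoma markers had a mean of at least 1 FPKM, with sums of 1510 to 1530 FPKM in normoxia, 1300 in both control hypoxia libraries, 1510 to 1640 in eKD1 and 1450 to 1460 in eKD2. By the limma test described below, 8 of these 10 were called lower and 1 higher under hypoxia, where 32.2% of all genes were called. In eKD2, 4 were called higher and 1 lower, beside 9.61% of all genes. In eKD1, 0 were called, beside only 0.0651% of all genes, though 9 of the 10 had a log2 change above 0 and 1 below. In eKD1, 8 had an unadjusted p under 0.05, with no share of all genes beside it. All 7 hypoxia response markers were called higher in control hypoxia by the same test, beside 16.2% of all genes, with a median log2 change of 2.59. Among markers of other cells, all 6 fibroblast markers had a mean of at least 1 FPKM, and their sum was 351 to 355 FPKM in normoxia, 447 to 466 in control hypoxia, 432 to 453 in eKD1 and 426 to 438 in eKD2. The summed epithelial markers (3 of 6 with a mean of at least 1 FPKM, KRT5 listed at 0) were 125 to 126, 85.4 to 88.3, 147 to 152 and 128 to 130 FPKM in the same order. Most of that sum was KRT18, at 74.8 to 139 FPKM over the 8 libraries. The summed blood cell markers (2 of 6, CD3E and HBB listed at 0) were 23.9 to 25.3, 5.69 to 5.98, 12.2 to 12.3 and 15.4 to 15.8 FPKM, nearly all of it PTPRC. The part of these differences in the results below was not tested. In bulk RNA, fewer cells of a kind and less RNA per cell cannot be told apart.

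Reference promoters (RefSeq, GRCh38.p14, a window of 300 bases around each start) were at hand for 30 of the 36 genes, all but GSS, GSR, TXN2, PRDX1, PRDX6 and SOD1. The core of the antioxidant response element, TGACNNNGC on either strand, lay in the promoters of 7 of these 30 genes (23.3%), beside 16.1% of 27305 genes. The 7 genes were GSTP1, GSTO1, PGD, TXNRD1, GCLM, KEAP1 and MGST1. A stretch from 6 of them is shown because these genes include the transferases, a reductase and an NADPH-making enzyme whose RNA is followed below. Each reads 5′ to 3′ along the gene, with the match in capitals. A match on the opposite strand appears as its reverse complement.
GSTP1, chr11:67583726-67583774, plus strand: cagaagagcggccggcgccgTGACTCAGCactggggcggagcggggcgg
GSTO1, chr10:104254646-104254694, plus strand: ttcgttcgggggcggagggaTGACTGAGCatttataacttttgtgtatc
PGD, chr1:10398843-10398891, plus strand: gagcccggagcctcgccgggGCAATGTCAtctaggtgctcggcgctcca
TXNRD1, chr12:104286910-104286958, plus strand: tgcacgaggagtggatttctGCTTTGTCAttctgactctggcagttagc
GCLM, chr1:93909436-93909484, minus strand: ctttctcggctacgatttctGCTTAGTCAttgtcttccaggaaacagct
KEAP1, chr19:10502774-10502822, minus strand: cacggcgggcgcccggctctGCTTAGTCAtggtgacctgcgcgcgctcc

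GCLM and KEAP1 carry the same letters in the match. The match of GSTP1 also holds TGACTCA, the site of AP-1 factors, so the motifs overlap there. GSTO1 and KEAP1 hold a second match in the same promoter, and TXNRD1 holds further matches at another start. The core of the hypoxia response element, ACGTG or GCGTG on either strand, lay in 20 of the 30 genes (66.7%), beside 52.4% of all genes. These are letter matches in a short window and no measure of binding.

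The 36 genes differed widely in level. PRDX1, a cytosolic peroxiredoxin, had the highest mean over the 8 libraries, 1420 FPKM, rank 102 of the 15372 genes tested. GSTP1, a glutathione transferase, followed with 1050 FPKM (rank 127), and then GPX4, the peroxidase of membrane lipid peroxides, with 514 FPKM. In all, 15 genes had a mean of at least 100 FPKM and 7 a mean under 20 FPKM. At the low end stood GCLM, the modifier subunit of glutamate-cysteine ligase, with 8.43 FPKM, and MGST1, a membrane-bound glutathione transferase, with 1.36 FPKM. GPX3, the secreted plasma peroxidase, was listed at 0 in all 8 libraries, so 35 genes were tested. The summed level of the 36 genes was 5831 to 5967 FPKM in normoxia, 7382 to 7598 in control hypoxia, 7069 to 7186 in eKD1 and 5544 to 5601 in eKD2. As a share of each library's total this was 0.674% to 0.68%, 0.725% to 0.73%, 0.709% to 0.746% and 0.578% to 0.588%. The eKD2 libraries had the lowest share and did not overlap with any other group. The sum rests heavily on PRDX1, with a mean of 1821 FPKM in control hypoxia and 823 in eKD2. Of the 35 tested genes, 23 were lower and 12 higher in eKD2 than in control hypoxia by log2 difference, called or not. Duplicates differed by a median of 0.061 to 0.116 on the log2(FPKM + 1) scale over these genes.

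**Figure D1:**
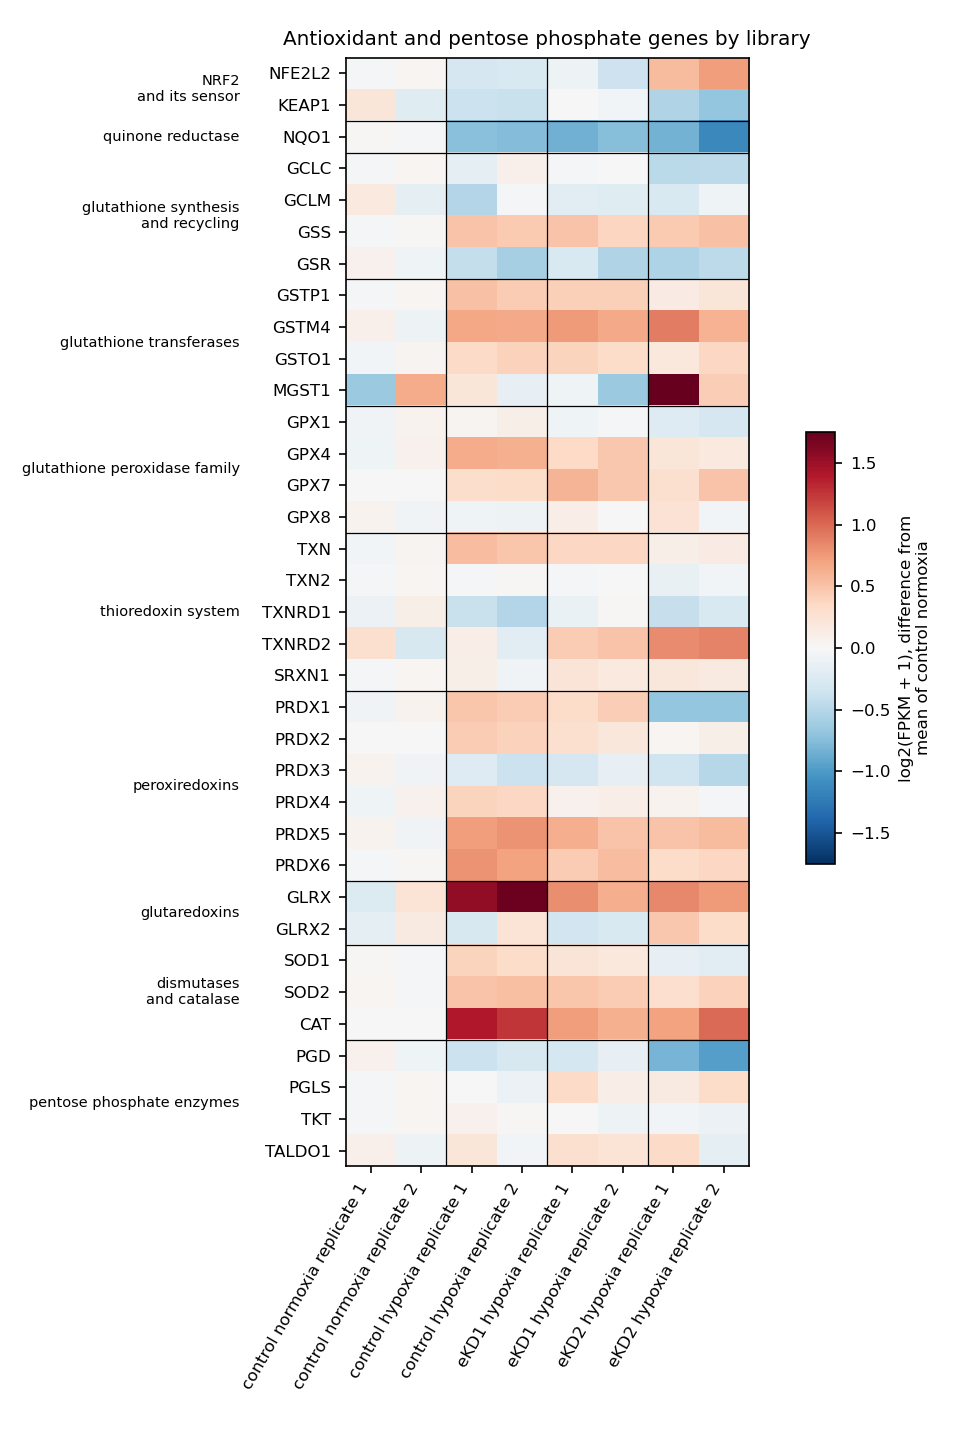
Colours show log2(FPKM + 1) of 35 genes (rows, by role) in each of 8 libraries (columns) as the difference from the mean of the 2 control normoxia libraries, and GPX3, listed at 0, is left out. The control hypoxia columns are redder than normoxia for most peroxiredoxins, GLRX and CAT, the PRDX1 row turns deep blue in eKD2, and the strong colour of MGST1 in 1 eKD2 library is a level of 6.58 FPKM.

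The response of these genes to low oxygen was read from the control cells, hypoxia against normoxia. Of the 35 tested genes, 21 (60%) passed the test, 16 higher and 5 lower in hypoxia. Most peroxiredoxins (5 of 6), both superoxide dismutases, catalase and the glutaredoxin GLRX rose, while NQO1, GSR, TXNRD1, NFE2L2 and PGD fell. The test was limma on log2(FPKM + 1) across all 15372 genes that reached 1 FPKM in 2 or more libraries, and a gene was called at a Benjamini-Hochberg adjusted p under 0.05. Of all tested genes 32.2% were called, 16.2% higher and 16% lower. Well expressed genes were called more often, and among genes with a mean of at least 10 FPKM the share was 41.8%, beside 21 of the 33 genes of the list at that level. As 15 genes of the list averaged at least 100 FPKM, that share is not matched to the list in level. The median log2 change of the list was 0.0752, beside 0.0131 over all genes, and the median absolute change was 0.367, beside 0.407. After every library was rescaled to the same total, which moved the median of all genes to -0.195, 19 genes of the list were called, 11 higher and 8 lower. Of all genes 36% were called at that scaling, and 28.3% of these calls were higher, so most were lower. Each of the 21 called genes kept its direction in every alternative setting, and 10 of them (GSTP1, GSTM4, GPX4, TXN, PRDX2, PRDX5, PRDX6, SOD2, CAT and NQO1) were called in all 11 alternatives other than the replicate block and the fits of 2 libraries against 1. The other 11 were called in between 4 (NFE2L2) and 10 (GSS, PRDX1 and GLRX) of these alternatives.

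The rescaling to equal totals ended the call of 5 genes, all of them higher in hypoxia. SOD1 was then at 0.116 in log2 units (limma adjusted p = 0.131, the highest over the 11 alternatives, with a lowest of 0.0027). GSTO1 was at 0.129 (limma adjusted p = 0.221, lowest 0.0148), PRDX4 at 0.138 (limma adjusted p = 0.185, lowest 0.00746), GSS at 0.243 (limma adjusted p = 0.0608, lowest 0.00443) and GPX7 at 0.0784 (limma adjusted p = 0.419, lowest 0.0285). The smallest rises still called were those of PRDX2 at 0.183, PRDX1 at 0.225 and GSTP1 at 0.235. PRDX3, TXN2 and GPX8 were added as lower. The peroxiredoxins called higher were thus 4 of 6, the transferases 2 of 4 and the dismutases and catalase 2 of 3 at that scaling.

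**Figure D2:**
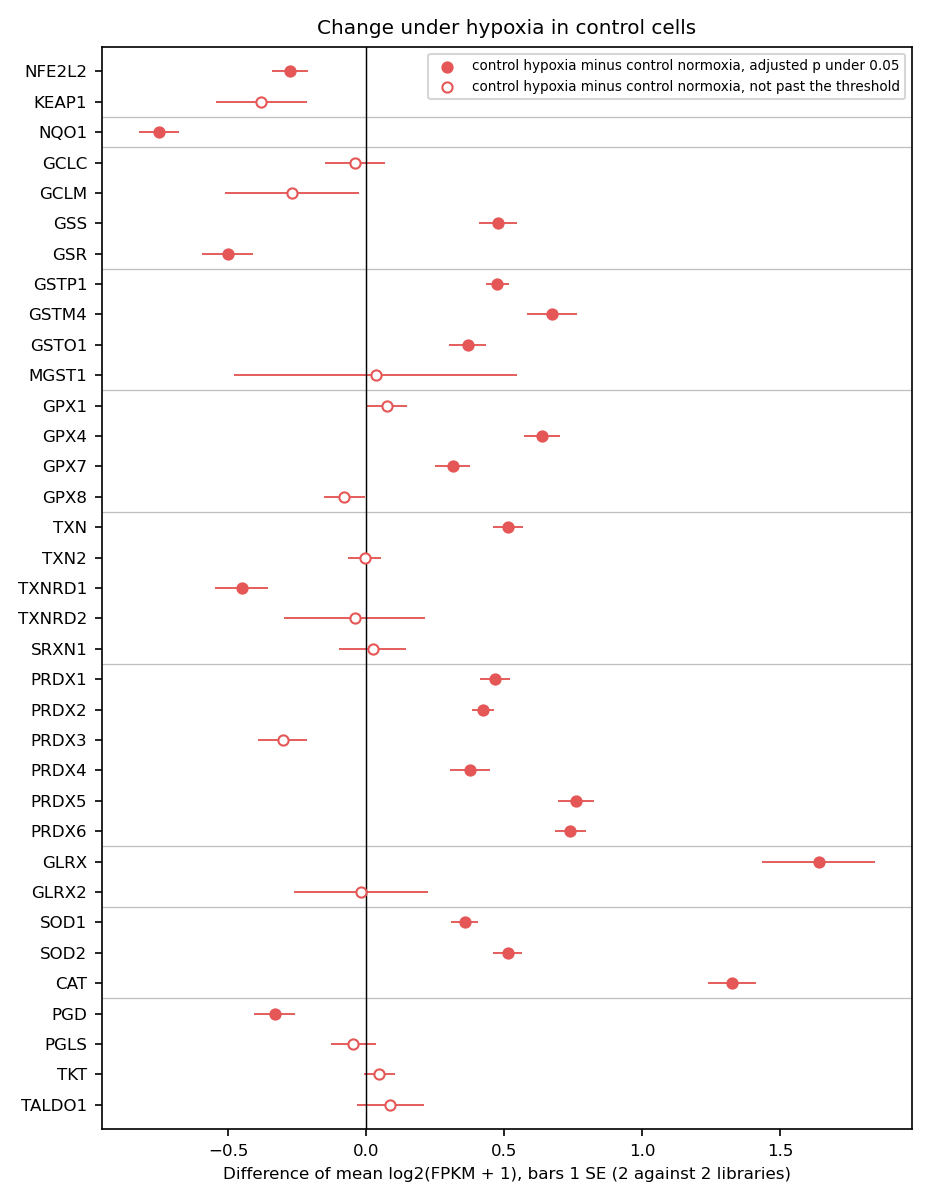
Points are the difference in mean log2(FPKM + 1) between control hypoxia and control normoxia for 35 genes ordered by role, with bars of 1 SE (2 against 2 libraries), filled where limma's adjusted p was under 0.05. Filled points lie to the right of 0 for 16 genes, led by GLRX at 1.64 and CAT at 1.32, and to the left for 5, led by NQO1 at -0.75.

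The pair at the head of the pathway did not rise. NFE2L2 (chr2:178083395-178257484, minus strand, GRCh37) was 53.5 and 56.0 FPKM in normoxia and 44.5 and 45.6 FPKM in hypoxia, a change of -0.28 in log2 units (SE 0.0656, limma adjusted p = 0.0476), close to the threshold. KEAP1, the sensor, was 94.8 and 70.2 FPKM in normoxia and 62.9 and 62.0 FPKM in hypoxia. Its groups did not overlap but its normoxia libraries lay far apart, and it did not pass (log2 change -0.38, limma adjusted p = 0.159). NQO1 (chr16:69740899-69760571, minus strand), the quinone reductase often read as a marker of NRF2 activity, was 41.8 and 40.3 FPKM in normoxia and 24.2 and 23.7 FPKM in hypoxia. Both hypoxia libraries were well below both normoxia libraries, with a change of -0.75 in log2 units (SE 0.0728, limma adjusted p = 0.0099), the largest fall of the list. A share of 17.9% of its read-length windows lies in an antisense gene that was listed at 0 in every library.

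Glutathione is made by glutamate-cysteine ligase (GCLC and GCLM) and glutathione synthetase (GSS) and is reduced again by glutathione reductase (GSR). GSS rose by 0.48 (SE 0.068, limma adjusted p = 0.0179) on the log2 scale, also without a call at equal totals. GSR was 145 and 130.2 FPKM in normoxia and 102 and 91.6 FPKM in hypoxia, a change of -0.50 in log2 units (SE 0.0925, limma adjusted p = 0.0287). The RNA for the enzyme that makes glutathione's last bond stood higher and that for the one that recycles it lower. Groups did not overlap in either, and GSS was called in 10 and GSR in 7 of the 11 alternatives. GCLC and GCLM did not pass, with log2 changes of -0.04 and -0.27 (limma adjusted p = 0.801 and 0.444). Of the 4 glutathione transferases, which join glutathione to electrophiles, 3 rose. GSTM4 was 30.7 and 27.1 FPKM in normoxia and 46.8 and 46.3 FPKM in hypoxia, a change of 0.67 in log2 units (SE 0.0913, limma adjusted p = 0.0163). A share of 9.39% of the read-length windows of its transcript is also found in other genes, GSTM1 and GSTM2 among them, so its value is less certain. GSTP1 rose by 0.48 (SE 0.0435, limma adjusted p = 0.00941) and GSTO1 by 0.37 (SE 0.0664, limma adjusted p = 0.0276), the latter not called with equal totals. MGST1 was too low for a reading, at 0 and 1.47 FPKM in normoxia and 0.426 and 0.818 FPKM in hypoxia.

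In the glutathione peroxidase family, GPX4 and GPX7 passed the test. GPX4 was 387 and 429.5 FPKM in normoxia and 640.5 and 629 FPKM in hypoxia, a change of 0.64 in log2 units (SE 0.0647, limma adjusted p = 0.0106). GPX7, a peroxidase of the endoplasmic reticulum, rose by 0.31 (SE 0.064, limma adjusted p = 0.0351), a call that equal totals ended as given above. GPX1, the cytosolic peroxidase, and GPX8, of the endoplasmic reticulum, did not pass, at 0.08 and -0.08 on the log2 scale. The value of GPX1 is uncertain, since 70.8% of its transcript's read-length windows also match a readthrough gene or its pseudogene GPX1P1. In the thioredoxin system, the RNAs of the cytosolic protein and of its reductase moved apart. TXN, cytosolic thioredoxin, was 351 and 375 FPKM in normoxia and 529.6 and 509 FPKM in hypoxia, a change of 0.51 in log2 units (SE 0.0538, limma adjusted p = 0.0109). TXNRD1, its reductase, fell by 0.45 in log2 units (SE 0.0952, limma adjusted p = 0.0375). Their mitochondrial counterparts TXN2 and TXNRD2 did not pass, at -0.01 and -0.04, nor did SRXN1, which repairs overoxidised peroxiredoxins, at 0.02. A share of 90.5% of the read-length windows of SRXN1 lies in a readthrough gene listed at no more than 0.00234 FPKM, so its value depends on how reads were divided.

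The peroxiredoxins, thiol peroxidases that remove peroxide at low concentrations, had 5 of 6 members called higher. PRDX5 was 189.9 and 174 FPKM in normoxia and 301 and 315 FPKM in hypoxia, a change of 0.76 in log2 units (SE 0.0658, limma adjusted p = 0.00873). PRDX6, which uses glutathione rather than thioredoxin, was 105 and 108 FPKM and then 184 and 174 FPKM, a change of 0.74 (SE 0.0559, limma adjusted p = 0.00809). PRDX1 was 1264 and 1374 FPKM in normoxia and 1842 and 1799 FPKM in hypoxia, a change of 0.47 (SE 0.0539, limma adjusted p = 0.0127). In all of these both hypoxia libraries lay above both normoxia libraries. PRDX2, also cytosolic, rose by 0.42 (SE 0.0408, limma adjusted p = 0.00984). A share of 15.2% of its read-length windows is also found in other genes, so its value is less certain. PRDX4, of the endoplasmic reticulum, rose by 0.38 (SE 0.0724, limma adjusted p = 0.0309), though PRDX4 was not called with equal totals. PRDX3, a mitochondrial peroxiredoxin, was not among those called higher, at 89.1 and 81.4 FPKM in normoxia and 72.5 and 65.4 FPKM in hypoxia. Its difference of -0.30 did not pass (limma adjusted p = 0.0722), although the groups did not overlap.

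The largest rises were in a glutaredoxin and in catalase. GLRX (chr5:95087023-95158430, minus strand), the cytosolic glutaredoxin that removes glutathione from proteins, was 6.67 and 9.71 FPKM in normoxia and 25.6 and 28.9 FPKM in hypoxia. Its level was 3.33 times as high, a change of 1.64 in log2 units (SE 0.205, limma adjusted p = 0.0144). GLRX2, its mitochondrial relative, showed overlapping groups and a change of -0.02. CAT (chr11:34460481-34493607, plus strand), the peroxisomal catalase, was 17.8 and 17.9 FPKM in normoxia and 48.6 and 44 FPKM in hypoxia. This was 2.59 times as high, with a change of 1.32 in log2 units (SE 0.0881, limma adjusted p = 0.0078) and nearly equal duplicates. SOD2, the mitochondrial dismutase, was 87.1 and 83.8 FPKM and then 121 and 123 FPKM, a change of 0.51 (SE 0.0535, limma adjusted p = 0.0108). SOD1, the cytosolic dismutase, was 304 and 295 FPKM and then 393 and 375 FPKM, a change of 0.36 (SE 0.0481, limma adjusted p = 0.0161) that equal totals reduced to 0.116, not called. Of 5 genes known mainly for mitochondrial proteins (SOD2, PRDX3, TXN2, TXNRD2 and GLRX2), SOD2 was the 1 that passed. Genes whose proteins are found in mitochondria and elsewhere, such as PRDX5, which rose, were not counted among them.

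Of the 4 pentose phosphate enzymes, 1 passed. PGD, 6-phosphogluconate dehydrogenase and the NADPH-making step of the list, was 270 and 243 FPKM in normoxia and 197 and 209.9 FPKM in hypoxia. It fell by 0.33 in log2 units (SE 0.0747, limma adjusted p = 0.0427), with both hypoxia libraries below both normoxia libraries. PGLS, TKT and TALDO1, which hydrolyse the lactone intermediate and rearrange sugar phosphates, did not pass, with log2 changes of -0.05, 0.05 and 0.09. With respect to the promoter letters, the antioxidant response core was in 2 of 12 genes called higher (GSTP1 and GSTO1), 2 of 4 called lower (TXNRD1 and PGD) and 3 of 13 not called. The hypoxia response core was in 7 of 12, 4 of 4 and 8 of 13.

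**Figure D3:**
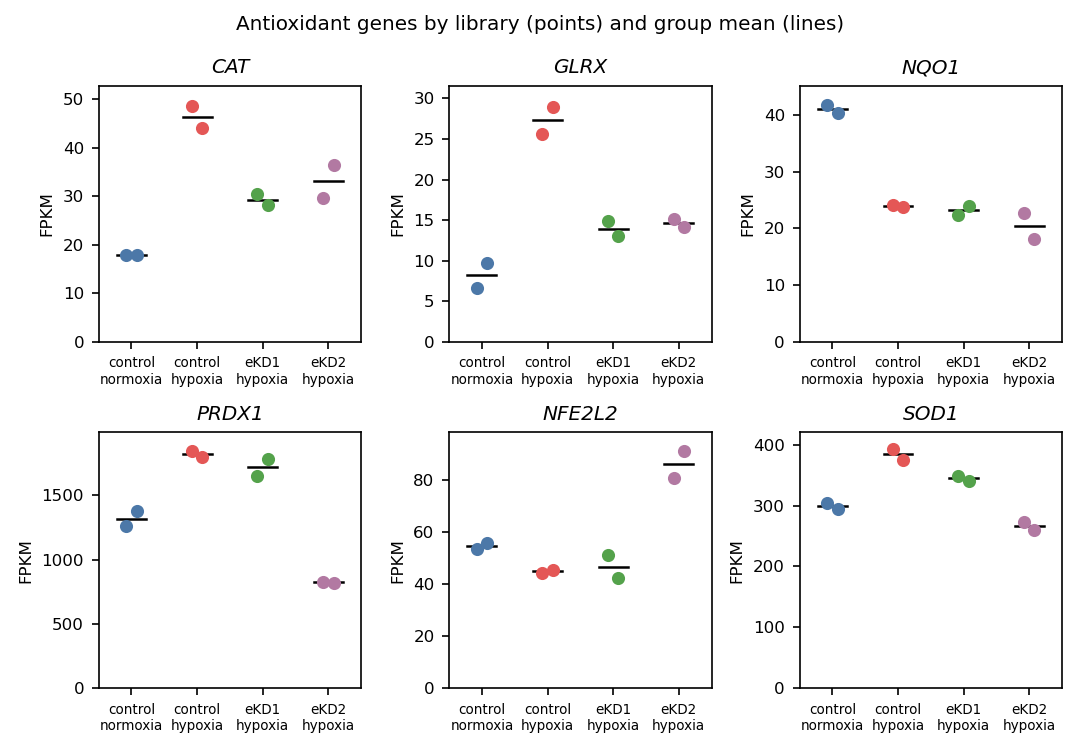
Points are FPKM of single libraries and lines the group means (n = 2), on linear axes that start at 0, for CAT, GLRX, NQO1, PRDX1, NFE2L2 and SOD1. For CAT and GLRX both eKD groups lie between normoxia and control hypoxia, whereas for PRDX1, at 822 and 824 FPKM, and for NFE2L2, at 81.0 and 91.3 FPKM, the eKD2 libraries stand outside all others.

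The comparison of eKD1 with control cells, both in hypoxia, asked what silencing of the LOXHD1 enhancer did to these genes, and none of the 35 passed limma's test. Of all genes 0.0651% were called. At an unadjusted limma p under 0.05 there were 12 of the 35, of which 8 were lower (GLRX, CAT, PRDX4, GPX4, PRDX6, PRDX2, TXN and SOD1) and 4 higher (KEAP1, TXNRD1, TXNRD2 and GPX7). The share of all genes under that unadjusted p is not given here, so the count has no background to be read against. GLRX had the largest difference. The control libraries had 25.6 and 28.9 FPKM and the eKD1 libraries 14.9 and 13.0 FPKM, a log2 difference of -0.92 (SE 0.121, limma adjusted p = 0.11). CAT was 48.6 and 44 FPKM in control and 30.4 and 28.2 FPKM in eKD1, a difference of -0.64 (SE 0.0909, limma adjusted p = 0.114). For both, the eKD1 libraries lay between those of normoxia and those of control hypoxia. A fit that shares the spread of all 8 libraries called both lower (limma adjusted p = 0.0427 for GLRX and 0.0373 for CAT, over the alternatives 0.0427 to 0.198 and 0.0373 to 0.192) and no other gene of the list, and it called 4.95% of all genes.

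Among the rest, KEAP1 was 82.4 and 79.1 FPKM in eKD1, above both control hypoxia libraries (0.37, limma adjusted p = 0.117). TXNRD1 was 152 and 139 FPKM with the empty vector and 184 and 201 FPKM in eKD1 (0.40, limma adjusted p = 0.13). Counting groups that did not overlap, 8 of the 35 genes were higher and 14 lower in eKD1, beside 27.6% and 26% of all genes. The median log2 difference of the list was -0.0372, beside 0.00245 over all genes. PRDX1 was 1650 and 1784 FPKM in eKD1, just under the control range, and NFE2L2, at 51.3 and 42.4 FPKM, overlapped with control.

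The comparison of eKD2 with control cells in hypoxia asked the same of the second guide and gave 11 of 35 genes (31.4%), 1 higher and 10 lower. NFE2L2 rose, and PRDX1, PRDX2, PRDX4, PRDX6, GPX4, TXN, SOD1, GLRX, GSTP1 and PGD fell. Of all genes 9.61% were called, 5.8% higher and 3.81% lower, and 13.8% were called among genes with a mean of at least 10 FPKM. The median log2 difference of the list was -0.127, beside 0.0518 over all genes. Under other scalings the split of the list was 1 higher and 12 lower (median-of-ratios) or 2 higher and 7 lower (equal totals), where the median of all genes moved to -0.00756 and 0.144. Of all genes 10.4% and 12.3% were called at these scalings, and 46.3% and 77.5% of those calls were higher. Equal totals ended the calls of GSTP1, PRDX4 and PGD, and each of the 11 genes was called in 4 (PRDX4) to 10 (PRDX1) of the 11 alternatives. The control hypoxia libraries are shared by the hypoxia, eKD1 and eKD2 comparisons, so a chance deviation in them enters all of these with opposite sign for hypoxia. All 11 genes had also been called under hypoxia, and each comparison's values are therefore only given side by side. Without limma's variance trend 0 genes of the list and 28 of all genes were called. Of the list 15 then had an unadjusted p under 0.05. With the replicate number as a block 0 of either were called (16 of the list at an unadjusted p under 0.05). The block leaves 1 residual degree of freedom, so its 0 calls cannot tell an unstable result from a lack of power. No share of all genes stands beside these unadjusted counts.

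**Figure D4:**
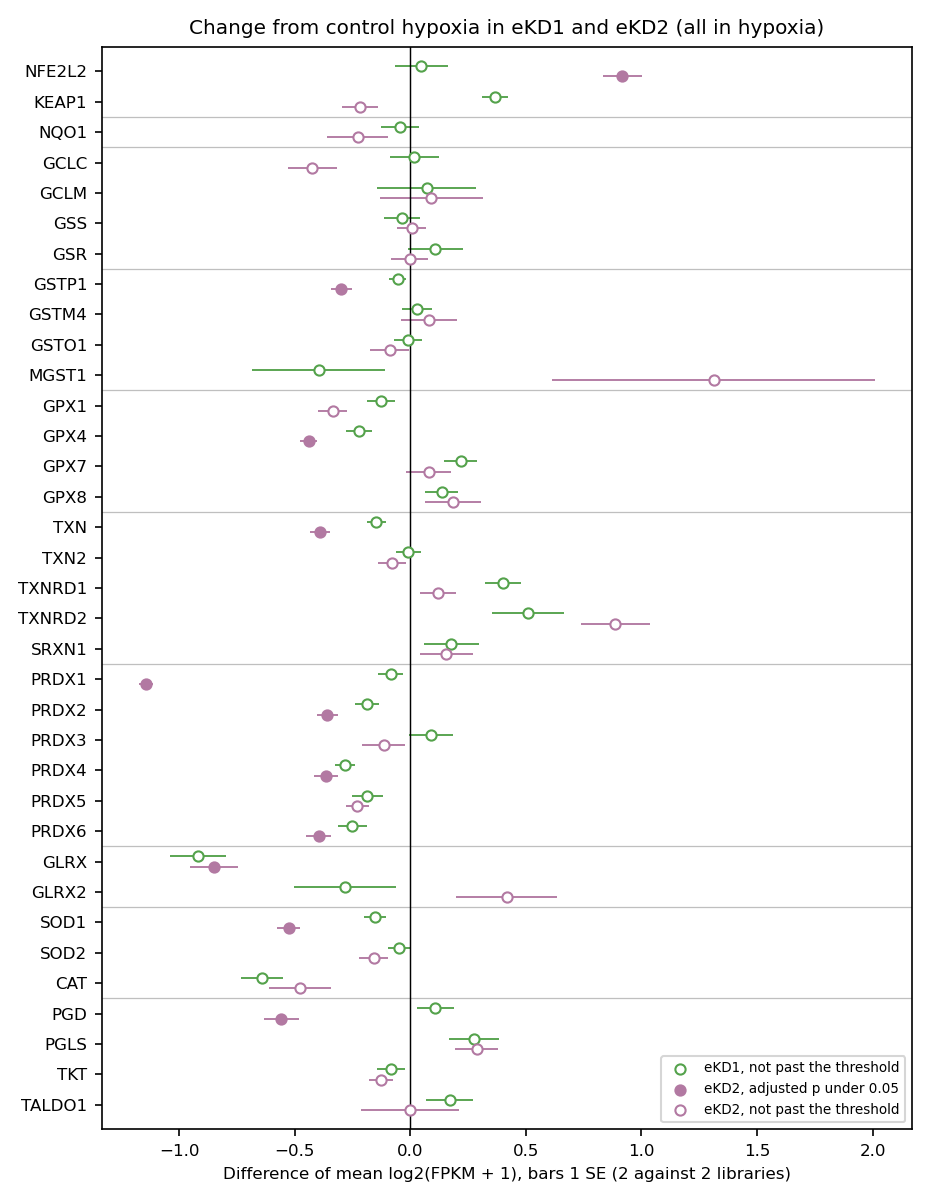
Points are the difference in mean log2(FPKM + 1) from control hypoxia in eKD1 (green) and eKD2 (purple) for 35 genes ordered by role, with bars of 1 SE (2 against 2 libraries), filled where limma's adjusted p was under 0.05. No green point is filled, while 11 purple points are, with NFE2L2 at 0.92 to the right and 10 genes to the left, led by PRDX1 at -1.14.

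PRDX1 (chr1:45976586-46008404, minus strand) had the largest difference. Control hypoxia had 1842 and 1799 FPKM, eKD1 1650 and 1784 FPKM and eKD2 824 and 822 FPKM. The eKD2 libraries agreed closely with each other and lay below every other library, those of normoxia included. The log2 difference from control hypoxia was -1.14 (SE 0.0319, limma adjusted p = 0.00989), or 0.452 times the control level, and it was called in 10 of the same 11 alternatives. PRDX1 lies on the strand opposite to MMACHC, a vitamin B12 processing gene, and 33.5% of the read-length windows of its transcript are shared with that gene. The library kit does not mark the strand, so reads of both cannot be told apart there. MMACHC was only 4.0 to 4.48 FPKM in control hypoxia and 9.08 to 9.63 FPKM in eKD2. The other called peroxiredoxins had smaller differences. PRDX6 was 133 and 138 FPKM in eKD2 (-0.40, SE 0.0542, limma adjusted p = 0.0379). PRDX4 and PRDX2 differed by -0.37 and -0.36 (limma adjusted p = 0.0411 and 0.0359). PRDX5, at 257 and 268 FPKM, and PRDX3, at 66.9 and 60.1 FPKM, did not pass (-0.23 and -0.12, limma adjusted p = 0.0692 and 0.447).

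NFE2L2 was the 1 gene of the list called higher. Control hypoxia had 44.5 and 45.6 FPKM and eKD2 81.0 and 91.3 FPKM, above every library of the other groups. The log2 difference was 0.92 (SE 0.0827, limma adjusted p = 0.0285), or 1.91 times the control level. A share of 4.93% of its read-length windows lies in another gene, listed at no more than 0.911 FPKM. Over the exons of all its transcripts, 38.4% of bases are shared with other genes, 24.8% with genes on the opposite strand. The kit does not mark the strand, so the value of NFE2L2 is less certain. The list holds several genes that NRF2 is known to activate, and of those NQO1 was 22.6 and 18.2 FPKM in eKD2 and 24.2 and 23.7 FPKM in control (-0.23, limma adjusted p = 0.32). GSTP1, PRDX1, TXN and PGD, also among them, fell as given here. GCLM, TXNRD1 and SRXN1 had differences of 0.09, 0.12 and 0.16 (limma adjusted p = 0.811, 0.37 and 0.414). GCLC, the catalytic subunit, was 45.1 and 46.0 FPKM in eKD2 and 56.3 and 67.1 FPKM in control (-0.42, limma adjusted p = 0.089). KEAP1 was 56.6 and 50.8 FPKM in eKD2, below both control libraries, and did not pass (-0.22, limma adjusted p = 0.159).

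SOD1 went from 393 and 375 FPKM in control hypoxia to 272 and 260.4 FPKM in eKD2, a difference of -0.53 (SE 0.0497, limma adjusted p = 0.0292). As with PRDX1, both eKD2 libraries were below both normoxia libraries. PGD was 197 and 209.9 FPKM in control and 145 and 131 FPKM in eKD2 (-0.56, SE 0.0754, limma adjusted p = 0.0375), and it too was lowest in eKD2. GLRX was 15.2 and 14.2 FPKM in eKD2, above normoxia and below control hypoxia (-0.85, SE 0.104, limma adjusted p = 0.0345). GPX4 was 475 and 461 FPKM in eKD2 (-0.44, SE 0.0375, limma adjusted p = 0.028) and TXN was 389 and 403 FPKM (-0.39, SE 0.0437, limma adjusted p = 0.0322), both again between the normoxia and control hypoxia levels. GSTP1 differed by -0.30 (limma adjusted p = 0.043). None of the 5 mainly mitochondrial genes was called, and SOD2 was 105 and 114 FPKM in eKD2 (-0.16, limma adjusted p = 0.176). CAT was 29.7 and 36.5 FPKM (-0.48, limma adjusted p = 0.103). Just outside the threshold were TXNRD2 (0.89, limma adjusted p = 0.0503) and GPX1 (-0.34, limma adjusted p = 0.0568). The remaining genes differed by -0.13 (TKT) to 0.42 (GLRX2), apart from MGST1 at 1.31 on levels of 6.58 and 1.11 FPKM, and did not pass. In the fit that shares the spread of all libraries 15 genes were called, 2 higher and 13 lower, with CAT, GCLC, GPX1 and TXNRD2 added, and 16.9% of all genes.

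The direct comparison of eKD2 with eKD1, which shares no control library with hypoxia, gave 1 of 35 genes, PRDX1, beside 0.403% of all genes called and 0.117% called lower. PRDX1 in eKD2 was 0.479 times the eKD1 level, a log2 difference of -1.06 (SE 0.0544, limma adjusted p = 0.0364), and 8 of the 11 alternatives called it. Apart from the low MGST1, the next largest difference was that of NFE2L2, at 51.3 and 42.4 FPKM with the first guide and 81.0 and 91.3 FPKM with the second (0.87, SE 0.13), but it did not pass (limma adjusted p = 0.0874). KEAP1 stood the other way, at 82.4 and 79.1 and 56.6 and 50.8 FPKM (-0.58, limma adjusted p = 0.0854). PGD differed by -0.67 (limma adjusted p = 0.0839), SOD1 by -0.37 (limma adjusted p = 0.0806) and GCLC by -0.44 (limma adjusted p = 0.0836), with no overlap of groups for any of them. Upward, GLRX2 differed by 0.70 (limma adjusted p = 0.09995) and TXNRD2 by 0.38 (limma adjusted p = 0.142), also without overlap. Of the 35 differences, called or not, 11 were above 0 and 24 below. Sharing the spread of all libraries, 7 genes were called (NFE2L2 higher, and PRDX1, SOD1, PGD, GSTP1, TXN and GCLC lower), beside 9.05% of all genes. GLRX and CAT, the genes with the largest hypoxia changes, had changes of 0.07 and 0.17 between the knockdowns (limma adjusted p = 0.758 and 0.499).

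Further genes of these pathways were followed in 7 lists. Under hypoxia, 5 of 9 tested pentose phosphate and ribose genes rose and 0 fell, where 16.2% and 16% of all genes did. They included H6PD, which makes NADPH in the endoplasmic reticulum (log2 difference 1.06, limma adjusted p = 0.0161), and the ribose phosphate kinases PRPS2 (log2 difference 0.89, limma adjusted p = 0.0103) and PRPS1 (log2 difference 0.64, limma adjusted p = 0.00929). Of 20 tested genes of glutathione supply and use, 10 rose and 1 fell, led by CHAC1, which degrades glutathione (log2 difference 2.13, limma adjusted p = 0.00801), and the transferases GSTM3 (log2 difference 1.18, limma adjusted p = 0.00618) and MGST3 (log2 difference 0.98, limma adjusted p = 0.00665). Of 12 further NRF2 target enzymes, 3 rose and 2 fell. SLC7A11, the cystine importer that feeds glutathione synthesis, was 18.1 to 18.3 FPKM in normoxia and 6.05 to 6.42 FPKM in hypoxia (log2 difference -1.41, limma adjusted p = 0.00809), while BLVRB, which reduces biliverdin, rose (log2 difference 1.02, limma adjusted p = 0.00728). Among NADPH sources outside the pathway, 2 of 13 rose, the mitochondrial enzymes IDH2 (log2 difference 0.75, limma adjusted p = 0.00717) and MTHFD2 (log2 difference 0.78, limma adjusted p = 0.00691), and 2 fell, the cytosolic MTHFD1 (log2 difference -0.76, limma adjusted p = 0.00976) and ME1 (log2 difference -0.72, limma adjusted p = 0.0293). Among 10 NRF2 partners and regulators, 3 rose and 2 fell, with CUL3, the ligase scaffold that works with KEAP1, lower (log2 difference -0.55, limma adjusted p = 0.0152) and SQSTM1, which binds KEAP1, higher (log2 difference 0.64, limma adjusted p = 0.0191). Of 14 thioredoxin-like genes and methionine sulfoxide reductases, 4 rose and 3 fell, and of 6 selenoprotein synthesis genes 1 rose and 1 fell.

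**Figure D5:**
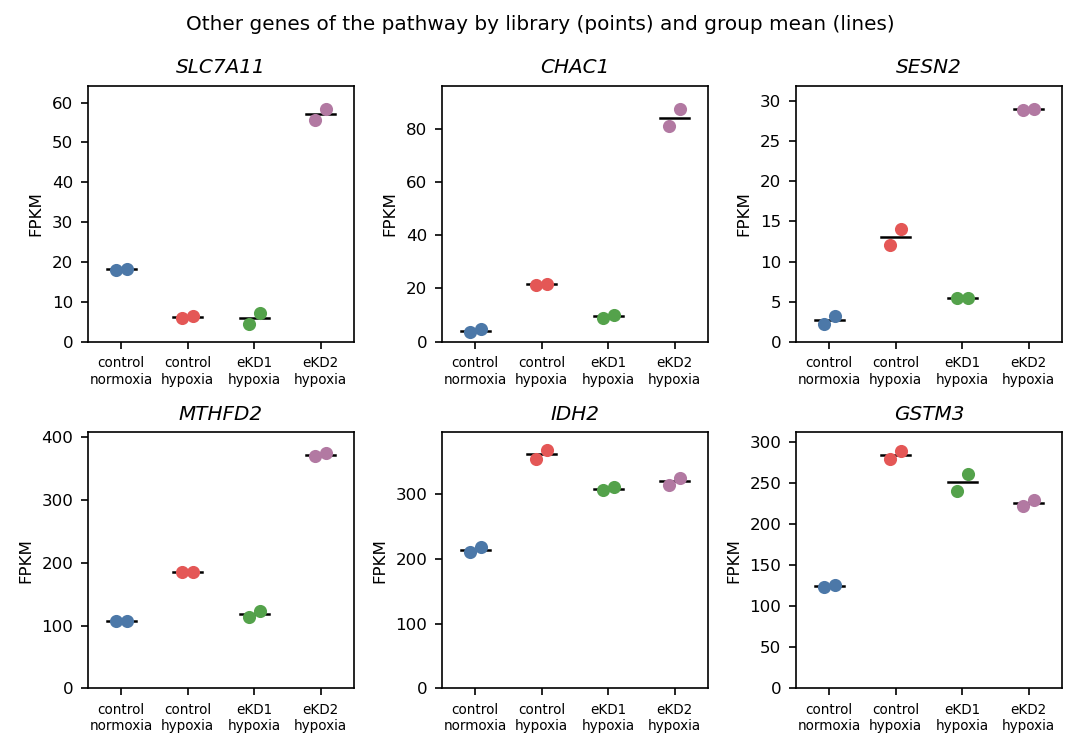
Points are FPKM of single libraries and lines the group means (n = 2), on linear axes that start at 0, for SLC7A11, CHAC1, SESN2, MTHFD2, IDH2 and GSTM3. The eKD2 libraries are the highest for the first 4 of these genes, with SLC7A11 at 55.7 to 58.4 FPKM, while IDH2 and GSTM3 have their highest values in control hypoxia.

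No gene of these 7 lists was called by limma in eKD1. An unadjusted p under 0.05 was found for 19 of 82, again without a share of all genes beside it. In eKD2, where 5.8% of all genes were called higher and 3.81% lower, the calls were 1 higher and 1 lower among NRF2 partners (CUL3 with log2 difference 0.55, limma adjusted p = 0.0394; SQSTM1 with log2 difference -0.69, limma adjusted p = 0.0345), 1 higher among NRF2 target enzymes, 2 higher and 3 lower in glutathione supply and use, 1 higher and 2 lower among thioredoxin-like genes, 1 lower among ribose genes (PRPS2, log2 difference -0.93, limma adjusted p = 0.0331), 1 higher among NADPH sources and 1 higher in selenoprotein synthesis (SECISBP2, log2 difference 0.59, limma adjusted p = 0.033). SLC7A11 rose from 6.05 to 6.42 FPKM in control hypoxia to 55.7 to 58.4 FPKM in eKD2 (log2 difference 3.0, limma adjusted p = 0.00989), 9.15 times as high, whereas the eKD1 libraries, at 4.56 to 7.24 FPKM, overlapped with control. Against eKD1 the difference was 3.10 on the log2 scale and just missed the threshold (limma adjusted p = 0.0529). CHAC1 was 80.9 to 87.2 FPKM in eKD2, 21.4 to 21.7 FPKM in control hypoxia and 9.04 to 10.2 FPKM in eKD1 (eKD2 against control, log2 difference 1.91, limma adjusted p = 0.0143). The eKD groups stood on opposite sides of control for CHAC1, SESN2 and MTHFD2, but the eKD1 side did not pass (limma adjusted p = 0.102 for each).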

How the data were processed

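RNA-seq was analysed for 8 SK-N-MC libraries, with groups and replicate numbers taken from the sample titles. The study calls them biological duplicates, and nothing says that the cultures were started separately, so p-values may measure technical spread only. The authors sequenced single-end reads of poly-A libraries made with a kit that does not mark the strand, checked them with FastQC, aligned them with STAR to GRCh37 (hg19 in the submitters' processing notes) and computed FPKM with cufflinks and cuffnorm. A single table was deposited, with FPKM of 60332 genes, and how cuffnorm scaled libraries to each other is not given in the sources used here. The study tested read numbers with a count model. The table holds no counts, so limma 3.58.1 in R 4.3.3 was run on log2(FPKM + 1), which understates changes of low genes.

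The 15372 genes that reached 1 FPKM in 2 or more of the 8 libraries were tested. Each comparison of 2 against 2 libraries was fitted alone (lmFit, eBayes with a variance trend), with two-sided p-values adjusted by Benjamini-Hochberg over all genes tested. All adjusted p-values are from limma. Absolute depth is unknown, so no interval or detection floor is given. An exact permutation test of 2 against 2 cannot go below p = 0.333 and was not used. Normoxic eKD libraries were not analysed here.

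The genes, their roles, the 7 lists of further pathway genes, the markers and the tests were chosen with earlier results of these data known. Values per library are printed for members called with an absolute log2 change of at least 0.5, and for some others chosen after their values were seen. Of the further genes, up to 4 called ones per list and comparison with the largest change, no overlap of groups and a higher group averaging at least 5 FPKM could be named. Gene positions are those of GENCODE version 44 lifted to GRCh37, another version than that of the authors, and promoters are from RefSeq on GRCh38.p14. Windows shared with other genes were counted at 75 bases along the canonical transcript of each gene.

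Each fit was repeated with a pseudocount of 0.1, without the filter, with genes averaging at least 5 FPKM, after rescaling to equal totals or by median of ratios, with the spread shared over all 8 libraries, with the replicate number as a block, without the variance trend and without each library in turn. Omission within the shared fit and the share of calls among genes at 10 FPKM or more were added after the data were seen.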

Additional observations from a re-analysis of the deposited data

Results flagged for a closer look

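Effects that differed between the knockdowns are given here, by the direct limma test of eKD2 against eKD1. PRDX1 was lower in eKD2 than in eKD1, by -1.06 on the log2 scale (limma adjusted p = 0.0364), in 2 of 2 libraries against both eKD1 libraries. CHAC1 was higher by 3.0 (limma adjusted p = 0.0205). SESN2, a stress-induced regulator of NRF2 and mTORC1 signalling, was 28.9 to 29.0 FPKM in eKD2, 5.40 to 5.45 FPKM in eKD1 and 12.1 to 14.0 FPKM in control hypoxia, and was higher in eKD2 by 2.22 (limma adjusted p = 0.0273). MTHFD2 was 370 to 375 FPKM in eKD2, 113 to 123 FPKM in eKD1 and 185 to 186 FPKM in control hypoxia, and was higher by 1.65 (limma adjusted p = 0.0256). In each case the libraries of both groups did not overlap.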

How the results depend on the processing

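Every member called in the hypoxia (21), eKD2 (11) and eKD2 against eKD1 (1) comparisons kept its direction in all settings, while counts depended on them. Without the filter 27155 genes were tested, so its shares have another base than the 15372 genes used elsewhere. Under hypoxia, testing without a filter called 13 members (37.1%) and 3024 genes (11.1%). No variance trend called 13 members (37.1%) and 4310 genes (28%), and the replicate block 14 members (40%) and 2570 genes (16.7%). Deviations of same-numbered libraries correlated at -0.0574 to 0.126 over 6 pairs of groups. Such low values cannot settle whether the replicate numbers pair the samples. The block, which leaves 1 residual degree of freedom, called 0 members and 0 genes in eKD1, in eKD2 and in eKD2 against eKD1. In eKD1, no filter gave 0 members and 206 genes (0.759%) and the shared fit 2 members and 761 genes (4.95%). No trend gave 0 members and 6 genes (0.039%) there. In eKD2, no filter gave 2 members and 853 genes (3.14%) and the shared fit 15 members and 2601 genes (16.9%). No trend gave 0 members and 28 genes (0.182%) for that guide. For eKD2 against eKD1, no filter gave 0 members and 260 genes (0.957%), and a mean filter of 5 FPKM 1 member and 105 genes (0.972%). Equal totals gave 0 members and 54 genes (0.351%) and the shared fit 7 members and 1391 genes (9.05%). No trend gave 0 members and 5 genes (0.0325%) between the guides. The median change of the members moved to -0.15 (hypoxia), 0.03 (eKD1) and -0.02 (eKD2) with equal totals and to -0.20 (eKD2) and -0.16 (eKD2 against eKD1) with median-of-ratios rescaling.

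Leaving out 1 library of a comparison leaves 1 residual degree of freedom, and limma then called 0 members and 0 genes in all 4 comparisons, which says nothing about stability. The members' median under hypoxia was 0.10 to 0.21 in these fits. With the spread shared with the other libraries, omission gave 15 to 19 members and 3480 to 4128 genes under hypoxia, 0 members and 20, 22, 24 and 41 genes in eKD1, 4 to 8 members and 670, 749, 924 and 1034 genes in eKD2 and 1 to 3 members and 190, 212, 229 and 320 genes for eKD2 against eKD1, with the lowest eKD2 count without control hypoxia replicate 1. The cause of these differences was not tested. FPKM values give no depth, so the precision of low genes such as MGST1 and GCLM is unknown.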
